A study of Mus musculus with 72 samples.

Results

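Livers of DBA/2J (D2) male embryos were compared with livers of C57BL/6J (B6) male embryos at E14.5 (the embryonic day). The samples were chosen by their titles, which name the strain, the stage and the tissue: 6 of the 72 Affymetrix arrays of the series, 3 for DBA/2J and 3 for C57BL/6J. The series covered whole liver and whole brain of 3 inbred strains (DBA/2J, 129S2 and C57BL/6J) at E14.5, P1, P7 and P90, with 3 arrays in each of 24 groups, and no animal was treated. Both strains had been bought from The Jackson Laboratory. The embryos and the P1 and P7 pups were offspring of purchased animals, and the P90 animals (11 to 14 weeks) had been purchased themselves. The labels do not say whether the 3 arrays of a group came from different litters, and the p-values below measure only the spread between those arrays. Tissue was taken whole, so every value mixes all cell types of the organ. All values are log2 signals after RMA (robust multi-array average, a method that corrects background, normalizes arrays and summarises the probes of a set), so a difference of 1 is a 2-fold difference.

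The liver at midgestation is the main blood-forming organ of the embryo. Haematopoietic stem and progenitor cells lodge there and give rise chiefly to red cells, and also to megakaryocytes, macrophages and granulocytes, while hepatoblasts around them already make albumin, alpha-fetoprotein and other plasma proteins and mature into hepatocytes around birth. DBA/2J and C57BL/6J are long-established inbred strains and the parents of a widely used panel of recombinant inbred mice.

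The 6 livers carried the tissue's defining transcripts. Alb and Afp stood between 7.66 and 7.99 log2 units above the array medians, the erythroid band 3 gene Slc4a1 between 6.49 and 7.07, and the neuronal genes Snap25 and Neurod6 between -3.50 and -3.05. Array medians lay between 6.73 and 6.76, and pairs of arrays correlated at 0.983 to 0.996 across probe sets, which are not independent replicates. The authors had normalized the 9 arrays of E14.5 liver together and apart from all others, as equal values show: 2.25 to 3.30% of the values were identical between 2 of these arrays and 0% between them and any other array. Over 200 probe sets that separate the strains at the later liver stages, the deviations of the 3 DBA/2J arrays correlated with the DBA/2J profile at 0.79 to 0.81 and those of the 3 C57BL/6J arrays at -0.81 to -0.80. DBA/2J replicate 1 stood apart from the other two DBA/2J arrays in several blood cell genes, and for several gene lists the count or median is also given without it.

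Of 12124 genes tested with limma, 609 (5.02%) were called at an adjusted p below 0.05 and a difference of at least 1.5-fold. Of these, 239 were higher in DBA/2J (1.97% of the genes tested) and 370 were lower (3.05%). At least 2-fold differences numbered 71 higher and 122 lower, and at least 4-fold differences 10 higher and 27 lower. The median difference of all genes tested was 0.04. The arrays of the strains did not overlap for 607 of the 609 called genes, against 31.4% of all genes tested. In 100 called genes the strain with less signal averaged below the filter of 6.74, so the size of the difference is not exact there. A further usable probe set existed for 194 called genes: 91 of these (46.9%) had one called in the same direction, 178 one with the same sign and 6 one called in the opposite direction. Where a probe matches only 1 strain's sequence, less RNA and poorer hybridisation cannot be told apart.

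Clone-like symbols aside, the called gene highest in DBA/2J was Ccnb1ip1, an E3 ligase gene known for its role in meiotic crossing over. Its signal was 10.25, 10.74 and 10.54 in DBA/2J livers, against 4.75, 5.87 and 6.01 in C57BL/6J livers, a difference of 4.97 (SE 0.27, adjusted p = 1.78e-06). All C57BL/6J values were under the filter, whereas the 3 DBA/2J values were well over it. Ctse, which encodes the aspartic protease cathepsin E, had 13.25, 13.40 and 13.18 in DBA/2J livers, against 9.80, 9.94 and 10.10 in C57BL/6J livers, a difference of 3.33 (SE 0.09, adjusted p = 2.55e-08). Its further probe set differed by 0.73 (adjusted p = 0.0819) and was not called. Slc25a31, an ADP/ATP carrier best known from testis, was higher by 3.64 (SE 0.35), Tmem184a by 2.85 (SE 0.22) and Hddc3, a pyrophosphohydrolase gene, by 2.59 (SE 0.10). The other genes of the upper 12, with clone-like symbols left out, were Ifi202b and Irgm2, described below, Rwdd3 (2.38), Gdpd1 (1.98), the metalloprotease gene Adamdec1 (1.88), the centrosomal Sfi1 (1.88) and the B cell signalling adaptor Pik3ap1 (1.8). Gdpd1 had a further probe set called the same way, at 1.24.

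The gene lowest in DBA/2J was Ift140, which encodes a subunit of the transport complex of cilia. It had 9.39, 9.01 and 9.11 in DBA/2J livers, against 12.84, 12.62 and 12.69 in C57BL/6J livers, so it was 11.7-fold lower (-3.54, SE 0.11, adjusted p = 3.54e-08). Gcnt1, a branching enzyme of mucin-type glycans, had 7.17, 7.24 and 7.01 in DBA/2J livers, against 10.11, 10.44 and 9.81 in C57BL/6J livers (-2.98, SE 0.15), and its further probe set was called lower as well (-2.05). Genes of the upper and lower 12 were taken only where the arrays of the strains did not overlap, so their separation is part of the choice. The carbonic anhydrase gene Car3 had 8.16, 10.06 and 9.94 in DBA/2J livers and 12.25, 12.47 and 12.18 in C57BL/6J livers (-2.92, SE 0.39), with DBA/2J replicate 1 the lowest. Both further probe sets of Car3 were called lower, at -2.09 and -2.23. Also among the lowest 12 were the peptide transporter gene Slc15a2 (-2.86), the zinc finger gene Zfp874a (-2.83), the imino acid transporter gene Slc6a20a (-2.70), the alpha-1 antitrypsin copy Serpina1c (-2.64), C1qtnf12 (-2.61, with 2 of 3 further probe sets called lower) and Kctd14 (-2.46). The 3 further probe sets of Kctd14 differed by only -0.49, -0.49 and -0.30 and were not called. The plot of the 24 genes across stages shows these differences with those of the later livers.

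**Figure D1:**
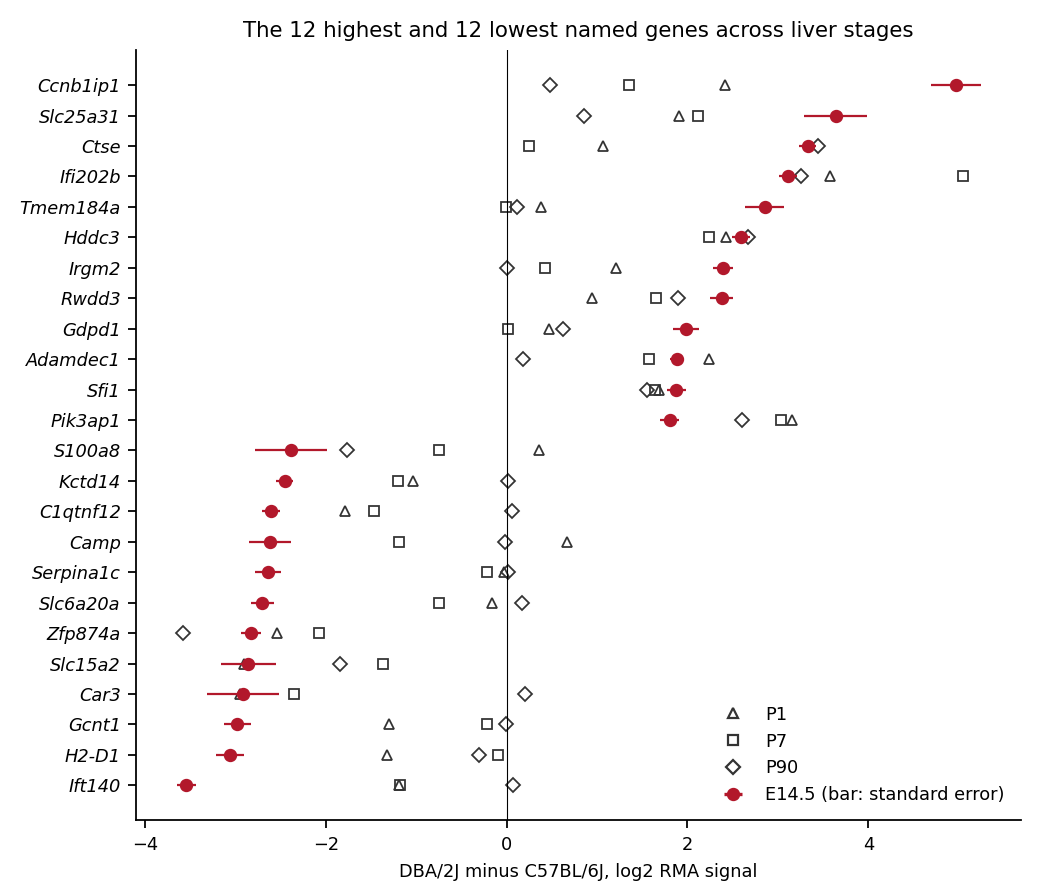
Difference between DBA/2J and C57BL/6J in log2 RMA signal (x axis) for the 12 highest and 12 lowest named genes (y axis), with filled circles for E14.5 (bar: standard error, 3 arrays per strain) and open symbols for P1, P7 and P90 liver. Hddc3, Sfi1, Pik3ap1 and Zfp874a lie far from 0 at every stage, whereas Tmem184a, Serpina1c and Slc6a20a lie far from 0 at E14.5 and between -0.75 and 0.38 later.

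H2-D1, a classical class I antigen-presenting gene of the major histocompatibility complex, was also among the lowest 12 (-3.06, SE 0.15), but its probe sets disagreed. The chosen probe set had 8.47, 7.92 and 7.83 in DBA/2J livers, against 11.04, 11.09 and 11.28 in C57BL/6J livers. Of 6 further probe sets, 3 were called lower in DBA/2J (-3.10, -2.39 and -0.62) and 3 higher (2.64, 2.25 and 1.31). Class I genes are many and near-identical, and the haplotypes of the strains differ, so no direction is given for H2-D1.

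Genes of granulocytes and their precursors were lower in DBA/2J. Of 13 neutrophil and myeloid precursor genes tested, 12 were called lower in DBA/2J and 0 higher, against 3.05% called lower of all genes tested, and their median difference was -1.56, against 0.04 for all genes tested. All 16 such genes on the array, 3 of them under the filter, had a median of -1.47. They encode the cargo of neutrophil granules, which is made in a fixed order during maturation in bone marrow or fetal liver: proteases and peroxidase first, then antimicrobial proteins, with the S100 proteins in the cytosol.

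The early-granule genes were lower in each DBA/2J array. Elane, the gene of neutrophil elastase, had 9.53, 9.13 and 8.90 in DBA/2J livers, against 10.69, 11.16 and 11.23 in C57BL/6J livers (-1.84, SE 0.17, adjusted p = 9.7e-05). Mpo, the gene of myeloperoxidase, had 11.75, 11.31 and 10.82 in DBA/2J livers and 12.09, 12.31 and 12.44 in C57BL/6J livers (-0.99, SE 0.20, adjusted p = 0.0103). The groups did not overlap for either gene, and DBA/2J replicate 1 was the DBA/2J array nearest to C57BL/6J. Prtn3 (-1.52), Ctsg (-1.14) and Ms4a3 (-1.38), a gene of granulocyte and monocyte progenitors, were called lower too.

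Genes of later granules and of the cytosol were lower as well. Camp, the gene of the cathelicidin antimicrobial peptide, had 9.11, 7.91 and 8.52 in DBA/2J livers, against 11.22, 11.04 and 11.14 in C57BL/6J livers, so it was 6.16-fold lower (-2.62, SE 0.23, adjusted p = 6.01e-05). S100a8, a subunit of the calcium-binding protein calprotectin, had 12.06, 10.02 and 10.50 in DBA/2J livers, against 13.32, 13.25 and 13.17 in C57BL/6J livers (-2.39, SE 0.40, adjusted p = 0.00331). Ngp, the gene of neutrophilic granule protein, had 10.73, 8.80 and 8.91 in DBA/2J livers and 11.66, 11.62 and 11.93 in C57BL/6J livers (-2.25, SE 0.42, adjusted p = 0.00609). In these genes the 3 C57BL/6J arrays lay close together, while DBA/2J replicate 1 was well above replicates 2 and 3. Lcn2, an iron-sequestering lipocalin, differed by -2.21, Ltf, lactoferrin, by -1.43 and Fcnb, ficolin B, by -1.56. Of the 13 genes, only Csf3r, the receptor of the granulocyte growth factor G-CSF, was not called: it differed by -0.34 (adjusted p = 0.0441), less than the fold minimum. Without DBA/2J replicate 1 the list's median was -1.96 with 12 called lower, and over the 6 arrays left out in turn it lay between -1.96 and -1.43 with 12 called lower each time.

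**Figure D2:**
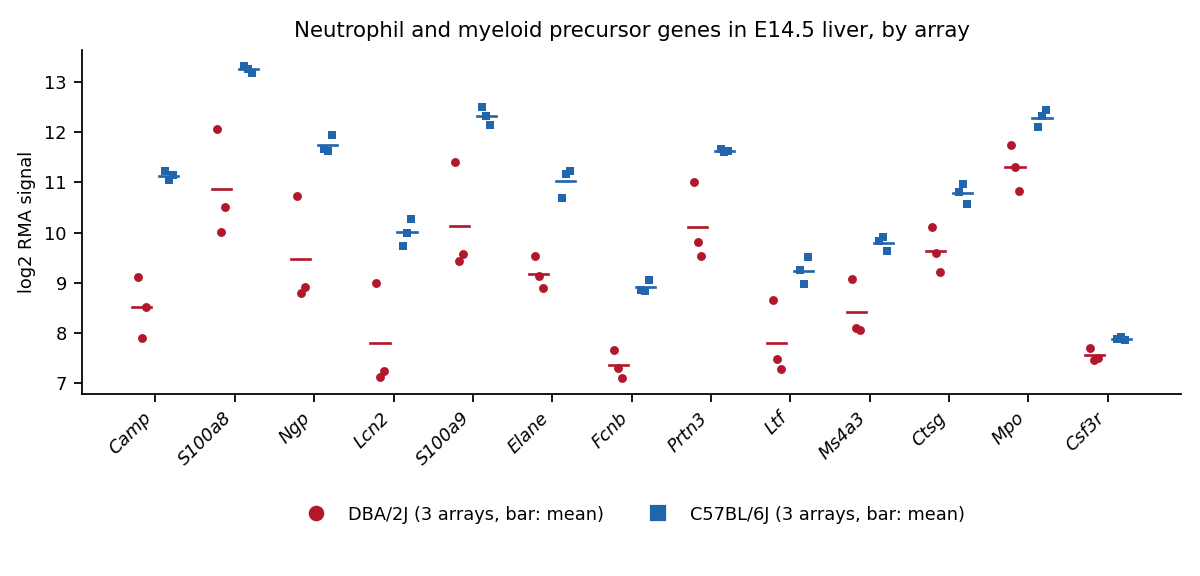
Log2 RMA signal (y axis) of the 13 neutrophil and myeloid precursor genes tested (x axis, ordered by difference) in each E14.5 liver array, with red circles for DBA/2J, blue squares for C57BL/6J and bars for the means of 3 arrays. The DBA/2J points lie below the C57BL/6J points in every gene, and the first DBA/2J point is the highest of its 3 throughout.

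Factors of the C/EBP family, needed for granulocyte formation, bind sites of the form TTNNGNAA, and 4 promoters are shown: Camp, the lowest gene of the list, the neighbours S100a8 and S100a9, and Ngp, with the most matches. The sequences are from RefSeq on build GRCm38.p6, a C57BL/6J reference, from 250 bases before to 50 bases after the start, 5′ to 3′ on the gene's strand, with each match to TTNNGNAA on either strand in capitals. Camp lies at chr9:109849407-109849706 (minus strand), Ngp at chr9:110419558-110419857 (plus strand), S100a8 at chr3:90668821-90669120 (plus strand) and S100a9 at chr3:90695672-90695971 (minus strand).
Camp: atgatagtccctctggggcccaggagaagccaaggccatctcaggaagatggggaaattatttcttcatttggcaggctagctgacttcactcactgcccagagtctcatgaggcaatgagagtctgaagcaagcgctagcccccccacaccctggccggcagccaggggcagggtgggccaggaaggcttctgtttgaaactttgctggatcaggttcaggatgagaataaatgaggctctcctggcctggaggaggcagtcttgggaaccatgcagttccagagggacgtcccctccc
Ngp: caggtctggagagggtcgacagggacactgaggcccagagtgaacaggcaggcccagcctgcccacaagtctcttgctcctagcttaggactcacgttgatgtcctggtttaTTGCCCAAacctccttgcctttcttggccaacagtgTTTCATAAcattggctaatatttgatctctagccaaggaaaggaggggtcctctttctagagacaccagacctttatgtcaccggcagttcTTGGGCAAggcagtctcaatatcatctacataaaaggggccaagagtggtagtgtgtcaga
S100a8: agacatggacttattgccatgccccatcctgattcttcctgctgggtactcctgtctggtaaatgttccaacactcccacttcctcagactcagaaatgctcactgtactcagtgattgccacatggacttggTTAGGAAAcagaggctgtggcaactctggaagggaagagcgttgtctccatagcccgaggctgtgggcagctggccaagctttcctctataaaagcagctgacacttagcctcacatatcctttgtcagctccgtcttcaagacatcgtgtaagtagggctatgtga
S100a9: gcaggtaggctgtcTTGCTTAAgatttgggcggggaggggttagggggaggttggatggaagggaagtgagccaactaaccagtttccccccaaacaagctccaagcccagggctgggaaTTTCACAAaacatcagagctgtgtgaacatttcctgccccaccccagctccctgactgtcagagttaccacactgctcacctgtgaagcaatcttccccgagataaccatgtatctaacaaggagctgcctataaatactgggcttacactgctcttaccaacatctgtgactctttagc
Camp had 0 matches, Ngp 3, S100a8 1 and S100a9 2. Of the 13 genes tested, 7 (53.8%) had a match in this window and 6, Elane and Mpo among them, had 0. Of all 32851 promoters in the table, 40.7% had a match, so the motif is common in windows of this length. A match is a description of the letters and not a measured binding site.

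Other blood cell lists moved in part. Of 15 megakaryocyte and platelet genes, 7 were called lower and 0 higher (median -0.66), where 3.05% of all genes tested were called lower and 1.97% higher. These shares, and the median of 0.04, are the background of every list below. Ppbp, a platelet chemokine, had 11.07, 12.42 and 12.24 in DBA/2J livers, against 12.92, 12.97 and 12.96 in C57BL/6J livers (-1.04, SE 0.28, adjusted p = 0.0355), and the integrin gene Itgb3 differed by -1.01 (SE 0.16, adjusted p = 0.00283). The low DBA/2J value of Ppbp belonged to replicate 1, and without that array 4 of 15 genes were called lower with a median of -0.43. With 1 array left out, the count ran from 3 to 9, and it was 3 without any single C57BL/6J array, each of which also ended the call of Ppbp (adjusted p from 0.0794 to 0.105). Pf4 (-0.63, adjusted p = 0.0635) and the integrin gene Itga2b (-0.40, adjusted p = 0.0673) were not called.

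Of 18 monocyte and macrophage genes, 5 were called lower and 0 higher (median -0.37). Lyz2, lysozyme 2, had 10.21, 9.68 and 9.82 in DBA/2J livers, against 11.70, 11.54 and 11.29 in C57BL/6J livers (-1.60, SE 0.14), and Cybb, a subunit of the phagocyte oxidase, differed by -1.08. Both genes are also used by neutrophils. Cd5l, a gene of tissue macrophages, was called at -0.89. The first 2 genes of the list, Adgre1 (-0.52, adjusted p = 0.0278, under the fold minimum) and Csf1r (-0.10, adjusted p = 0.853), were not called. Csf1r had 12.03, 11.00 and 10.66 in DBA/2J livers and 11.46, 11.18 and 11.35 in C57BL/6J livers, so replicate 1 was the highest of all 6 arrays. Without that array 8 of 18 genes were called lower (median -0.53). In whole liver, fewer cells of a type and less RNA per cell cannot be told apart, here and for every list that follows.

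Many lymphoid and mast cell genes were under the filter, and each of these lists had 1 called gene. These were Vpreb1 (-0.79), a surrogate light chain of early B cells, Nkg7 (-1.05), a granule gene of cytotoxic cells, and Hdc (-0.86), the histamine-forming enzyme of mast cells and basophils. For all 3 the DBA/2J mean was under the filter. None of 14 haematopoietic stem and progenitor genes was called with limma, 2 had an unadjusted p below 0.05, and their median was 0.05 (-0.02 without DBA/2J replicate 1). Kit differed by -0.13 (adjusted p = 0.457) and Cd34 by 0.08 (adjusted p = 0.744).

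Few red cell genes were called. Of 27 erythroid regulators and membrane genes, 1 was called higher and 1 lower, and the median was -0.26, with 22 of 27 differences below 0. By limma, 17 of the 27 had an unadjusted p below 0.05 (3397 of all 12124 genes tested), and the arrays of the strains did not overlap for 18 of 27, against 31.4% of all genes tested. Without DBA/2J replicate 1 the median was -0.14, with 0 called higher and 1 lower. The transcription factors Gata1 (-0.26, adjusted p = 0.173) and Klf1 (-0.13, adjusted p = 0.574) were not called. The called genes were Epb42, a membrane skeleton protein (-0.92, SE 0.15), and the carbonic anhydrase gene Car1 (0.63, SE 0.12). A further probe set of Epb42 differed by -0.45 and was not called. Without DBA/2J replicate 1 or C57BL/6J replicate 3, Car1 differed by 0.51, less than the fold minimum.

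The embryonic globins, which serve the first red cells of the yolk sac, did not move together. Hba-x, the zeta chain, had 13.17, 12.39 and 12.21 in DBA/2J livers, against 10.66, 11.15 and 11.74 in C57BL/6J livers, 2.65-fold higher (1.40, SE 0.30, adjusted p = 0.0139). Hbb-bh1, the beta H1 chain, had 11.53, 11.39 and 11.72 in DBA/2J livers and 12.22, 12.38 and 12.01 in C57BL/6J livers (-0.65, SE 0.11, adjusted p = 0.00448). Hba-x was thus higher and Hbb-bh1 lower in DBA/2J, with no overlap of arrays in the chosen probe set of either gene. Hbb-y, the epsilon-y chain, differed by 0.26 (adjusted p = 0.0566). The adult chain Hbb-b2 had 12.65, 12.70 and 12.91 in DBA/2J livers, against 11.76, 11.86 and 11.45 in C57BL/6J livers (1.06, SE 0.13). Globin copies are near-identical and the strains carry different beta-globin haplotypes, so the split of signal between Hbb copies is uncertain. The call of Hba-x was lost without C57BL/6J replicate 1 or 2 (adjusted p = 0.0549 and 0.0535). Hbb-bh1 was under the fold minimum without C57BL/6J replicate 2 (-0.57) or DBA/2J replicate 2 (-0.58), and with the mean of its probe sets (-0.54). Of its 2 further probe sets, 1 was called lower (-0.70) and 1, with overlapping arrays, was not called (-0.27).

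Of 24 genes of haem synthesis and iron handling, 3 were called. Alad, the enzyme of the second step, was higher and is described with its neighbour below. Cpox, coproporphyrinogen oxidase, was lower (-0.79, SE 0.17). It was not called without C57BL/6J replicate 2 (-0.63, adjusted p = 0.0563) or with the mean of its probe sets (-0.97, adjusted p = 0.284). Hmox1, haem oxygenase 1, was lower as well (-0.61, SE 0.17, adjusted p = 0.0417). Its call was lost without any single C57BL/6J array or DBA/2J replicate 3 (adjusted p from 0.0694 to 0.134). Alas2, the first enzyme in red cells, differed by -0.37 (adjusted p = 0.03), under the fold minimum.

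Genes of hepatocyte identity did not differ by the thresholds used, whereas many genes of hepatocyte products were lower in DBA/2J. Of 16 identity genes, 0 were called with limma, 5 had an unadjusted p below 0.05, and the median was 0.01 (-0.05 without DBA/2J replicate 1). Afp had 14.54, 14.51 and 14.39 in DBA/2J livers, against 14.49, 14.46 and 14.49 in C57BL/6J livers (0.00, SE 0.07, adjusted p = 0.999). Alb differed by -0.07 (SE 0.07, adjusted p = 0.534). These 2 signals are close to the top of the arrays' range, where differences may be compressed. 

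Among secreted proteins, 4 of 14 plasma transport and acute phase genes were called lower (median -0.47 over the genes tested and -0.13 over all 19 on the array). Hp, the haemoglobin-binding haptoglobin, had 8.12, 7.99 and 7.07 in DBA/2J livers, against 9.44, 9.17 and 9.32 in C57BL/6J livers (-1.58, SE 0.24, adjusted p = 0.00186). Ahsg, the gene of fetuin-A, had 12.02, 12.02 and 11.61 in DBA/2J livers and 12.89, 12.89 and 12.91 in C57BL/6J livers (-1.01, SE 0.12). DBA/2J replicate 3 was the lowest array for both. Without DBA/2J replicate 1, 7 of the 14 genes were called lower. Of 16 complement genes, 6 were called lower and 0 higher (median -0.21, and -0.35 without DBA/2J replicate 1). Hc, the gene of complement C5, had 8.95, 9.20 and 9.29 in DBA/2J livers, against 11.00, 10.90 and 11.20 in C57BL/6J livers (-1.89, SE 0.12). DBA/2J is a strain known to lack C5 in serum. The terminal components C8b (-1.04) and C8g (-0.85) and the lectin pathway protease Masp2 (-0.85) were lower as well, and C6 was not called (-0.11, adjusted p = 0.56).

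Of 18 genes in the coagulation list, 4 were called lower and 0 higher (median -0.33). The list and the 4 calls include Ang, which encodes the ribonuclease angiogenin and not a clotting factor. Ang had 7.41, 7.24 and 7.51 in DBA/2J livers, against 9.67, 9.59 and 9.80 in C57BL/6J livers (-2.30, SE 0.09), and its further probe set was called lower by a like amount (-2.10). F9, clotting factor IX, had 7.29, 6.90 and 7.02 in DBA/2J livers and 8.12, 8.05 and 8.04 in C57BL/6J livers (-1.0, SE 0.10). The fibrinogen chains were not called, with Fgb at -0.37 (adjusted p = 0.113) and Fga at -0.05 (adjusted p = 0.806). Of 12 apolipoprotein and lipid transport genes, Apoc4 (-1.12), Cd36 (-0.72) and Apoh (-0.63) were lower and Mttp, the transfer protein of lipoprotein assembly, was higher (0.79, SE 0.11). Further probe sets of Apoh (-0.31) and Mttp (0.50) were not called, while that of Cd36 was (-0.74). Cd36 lost its call without C57BL/6J replicate 1 or 2 (adjusted p = 0.0503 and 0.0501), and Apoh fell short of the fold minimum without DBA/2J replicate 3 (-0.58). Apob was not called (-0.28, adjusted p = 0.477).

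Enzymes of amino acid and urea metabolism split. Of 12 tested, 5 were called lower and 1 higher (median -0.54 over the genes tested and -0.38 over all 15 on the array). Arg1, the last enzyme of the urea cycle, had 6.17, 6.73 and 6.81 in DBA/2J livers, against 8.75, 8.66 and 8.10 in C57BL/6J livers (-1.94, SE 0.20, adjusted p = 0.000193). Cps1, the first enzyme of that cycle, had 9.36, 9.01 and 8.83 in DBA/2J livers, against 8.04, 7.85 and 7.86 in C57BL/6J livers, 2.22-fold higher (1.15, SE 0.17, adjusted p = 0.00199). The first and last enzymes of the cycle thus differed in opposite directions. The DBA/2J mean of Arg1 was under the filter, so the size of its difference is not exact. The tyrosine-degrading enzyme gene Hpd (-1.33, SE 0.08) and Bhmt, a methyltransferase of homocysteine (-0.88, SE 0.17), were lower. Of 15 xenobiotic genes, the sulfotransferase gene Sult1a1 (-1.39) and Cyp2c29 (-0.77) were lower and the glutathione transferase gene Gsta4 was higher (0.91). Cholesterol synthesis had 1 called gene of 16, Sc5d (-0.94), whose further probe sets differed by -0.08 and 0.17 and were not called.

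**Figure D3:**
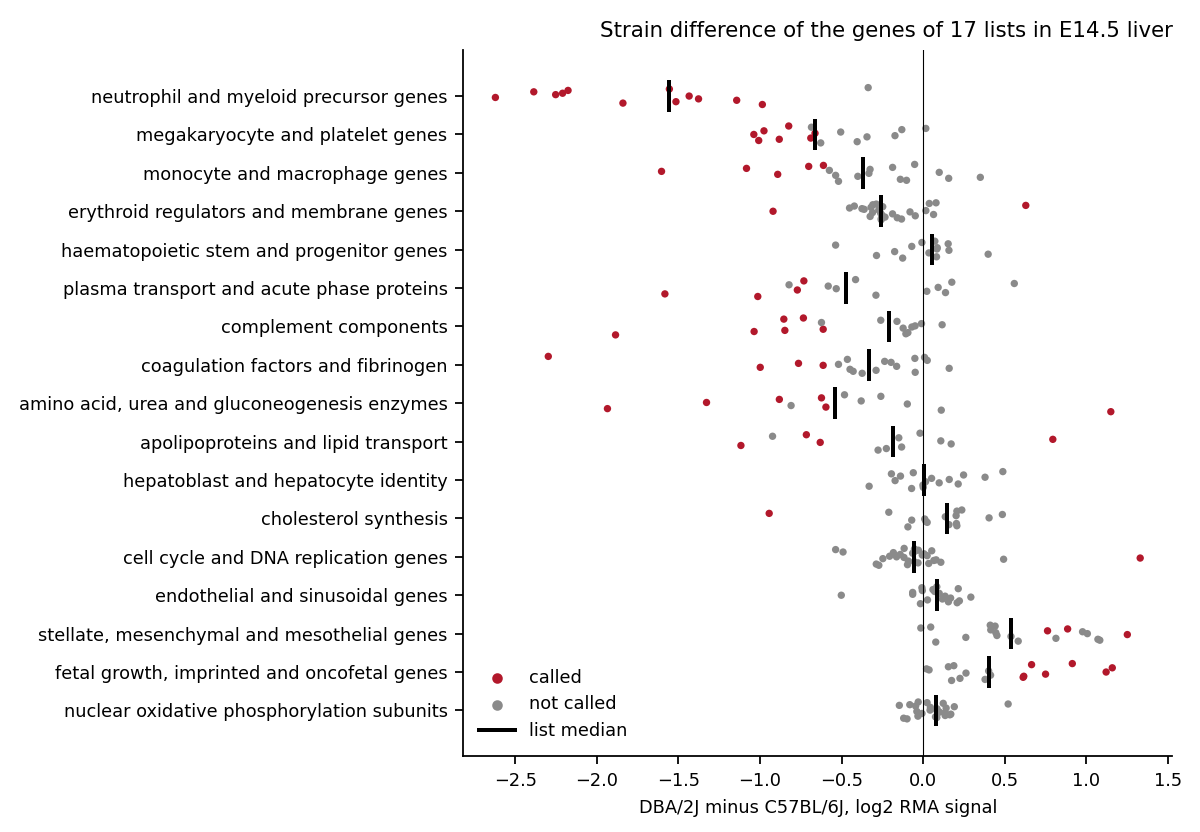
Difference between DBA/2J and C57BL/6J in log2 RMA signal (x axis) for the genes tested in 17 of the lists (y axis), with red points for called genes, grey points for genes not called and black bars for list medians. The neutrophil list has its median at -1.56, the stellate list at 0.54 and the hepatocyte identity list at 0.01.

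Whether the differences follow the course of liver maturation was described with genes chosen in the third strain, since 129S2 arrays enter neither side of the comparison. Genes at least 4-fold higher or lower at P1 than at E14.5 in 129S2 liver were chosen after quantile normalization over all 36 liver arrays. They were taken by size alone, because the E14.5 arrays had been normalized apart from the later ones. Of 377 such rising genes that were tested, 98 (26%) were called lower in DBA/2J, against 3.05% of all genes tested, and 11 (2.92%) were called higher, against 1.97%. Their median difference was -0.25, and 72.7% of them were below 0, against 42.2% of all genes tested. Of 82 falling genes tested, 14 (17.1%) were called higher and 4 (4.88%) lower, with a median of 0.13. Over all 513 rising genes, those under the filter included, the median was -0.15, with 103 called lower and 11 higher.

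Among the rising genes were the neutrophil genes Camp, Ngp and Lcn2 and the hepatocyte genes Serpina1c, Ang, Arg1 and Hp, and also Cps1, which was higher in DBA/2J. Hmga2 and Hba-x, both higher in DBA/2J, were among the falling genes. Without the members of the blood cell lists, 368 of the 377 rising genes remained, with 92 called lower and a median of -0.25. So few genes were left out that the median could hardly move, and blood cell genes outside the lists stayed in. The part of blood cells in the shift was thus not tested. At a 2-fold minimum, 163 of 1088 rising genes (15%) were called lower and 29 (2.67%) higher, with a median of -0.07. Of 1249 falling genes at that minimum, 54 (4.32%) were called higher and 46 (3.68%) lower, a near-even split, with a median of 0.04 like that of all genes tested. The median of the 377 rising genes was -0.12 in P1 livers, 0.03 in P7 livers and 0.02 in P90 livers (DBA/2J minus C57BL/6J in each).

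**Figure D4:**
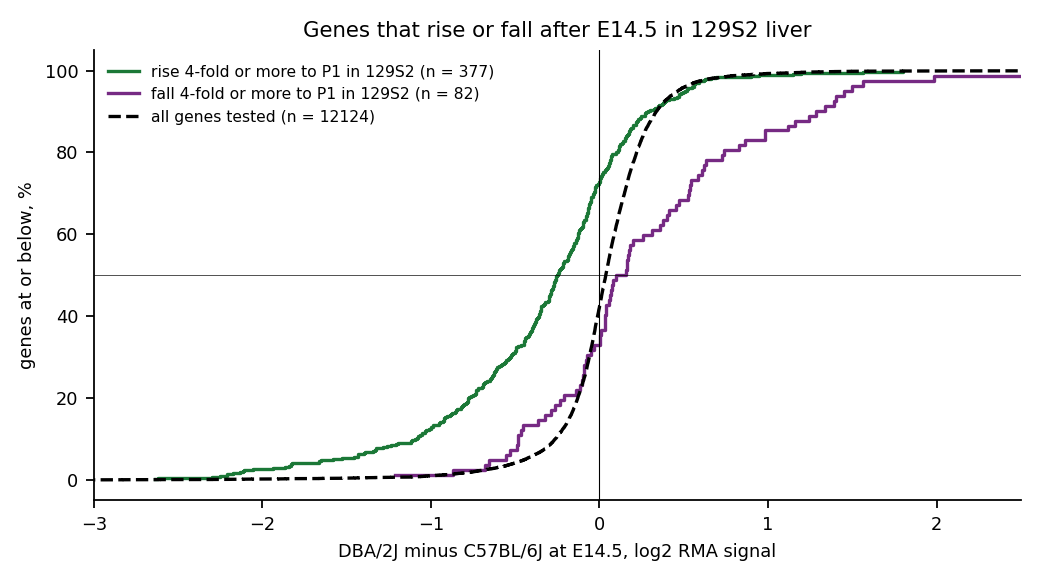
Cumulative share of genes (y axis, percent) at or below a given difference between DBA/2J and C57BL/6J at E14.5 in log2 RMA signal (x axis), for 377 genes that rise and 82 that fall at least 4-fold between E14.5 and P1 in 129S2 liver and for all 12124 genes tested (dashed). The curve of the rising genes lies left of that of all genes, with medians of -0.25 and 0.04.

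Several fetal growth and mesenchymal genes were called higher in DBA/2J and 0 lower. Of 17 fetal growth, imprinted and oncofetal genes tested, 7 were called higher and 0 lower, and all 17 differences were above 0 (median 0.40, and 0.26 without DBA/2J replicate 1), where 1.97% of all genes tested were called higher and 42.2% lay below 0. Hmga2, a chromatin protein of proliferating embryonic tissue, had 10.80, 10.42 and 10.44 in DBA/2J livers, against 9.24, 9.51 and 9.43 in C57BL/6J livers (1.16, SE 0.16, adjusted p = 0.00118). Ndn, the imprinted gene of necdin, differed by 1.12 (SE 0.28, adjusted p = 0.0273), Igfbp3, an IGF-binding protein, by 0.91 (SE 0.18) and Cdkn1c, an imprinted cell cycle inhibitor, by 0.75 (SE 0.18). Igfbp2 (0.66), Mest (0.62) and Peg3 (0.61) were the remaining calls. Igf2 itself (0.17, adjusted p = 0.298, with a further probe set called higher at 0.62) and Dlk1 (0.38, adjusted p = 0.0921) were not called. With 1 array left out the number called was between 3 (without C57BL/6J replicate 1 or 2) and 7, and it was 4 without C57BL/6J replicate 3 or DBA/2J replicate 1. Ndn lost its call without any single C57BL/6J array or DBA/2J replicate 1 (adjusted p from 0.0625 to 0.0903), and Cdkn1c without C57BL/6J replicate 1 or 3 or DBA/2J replicate 2 (from 0.0753 to 0.102).

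Of 19 stellate, mesenchymal and mesothelial genes, 3 were called higher and 0 lower, and 18 of 19 differences were above 0. The median was 0.54 over the genes tested and 0.45 over all 21 on the array. Pdgfra, the receptor for platelet-derived growth factor on mesenchyme, had 9.56, 8.90 and 8.81 in DBA/2J livers, against 7.83, 7.58 and 8.10 in C57BL/6J livers (1.25, SE 0.35, adjusted p = 0.0434). Wt1, a transcription factor of the mesothelium that covers the liver, had 6.77, 6.80 and 6.93 in DBA/2J livers and 5.75, 6.05 and 6.42 in C57BL/6J livers (0.76, SE 0.15). It passed the filter of 6.74 through the DBA/2J livers alone and by little, so the size of its difference is not exact. Lhx2, a transcription factor of stellate cells, differed by 0.88. The collagen genes Col1a1 (1.08, adjusted p = 0.424) and Col3a1 (0.81, adjusted p = 0.352) had large differences that did not pass the test. The calls were few and depended on single arrays: 1 gene was called without C57BL/6J replicate 1 or 2 or without DBA/2J replicate 1 or 3. Leaving out any single DBA/2J or C57BL/6J array ended the call of Pdgfra (adjusted p from 0.0586 to 0.146). With all arrays in, Pdgfra also lost it with no filter (adjusted p = 0.0536), after quantile normalization (0.0541), with a trended and robust fit (0.086) and with the mean of its probe sets, which differed by 0.42 (0.105). Leaving out C57BL/6J replicate 1 or 2 or DBA/2J replicate 1 or 3 ended the call of Lhx2 (adjusted p from 0.0601 to 0.0977). Markers of neighbouring organs that a dissection could include had a median of -0.04 over the 6 genes tested, of 19 on the array. By limma, 0 of the 6 were called and 0 had an unadjusted p below 0.05. The other markers were under the filter, so whether neighbouring tissue was carried over was not tested.

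Cell cycle and housekeeping lists of 17 to 29 genes held 0 to 2 calls each. With 5.02% of all genes tested called, such counts are close to the background and are not read as a trait of these genes. Of 29 cell cycle genes, 1 was called higher and 0 lower (median -0.05, and -0.01 without DBA/2J replicate 1). The call was Pttg1, securin, with 13.05, 13.14 and 13.16 in DBA/2J livers, against 11.82, 11.79 and 11.76 in C57BL/6J livers (1.33, SE 0.07, adjusted p = 1.52e-06), and its 2 further probe sets were called higher, at 1.40 and 2.12. Mki67 (-0.27, adjusted p = 0.151) and Top2a (-0.10, adjusted p = 0.643) were not called. By limma, 0 genes were called of 19 endothelial (2 at an unadjusted p below 0.05), 17 hypoxia and glycolysis (1), 18 heat shock and immediate early (5) and 26 nuclear oxidative phosphorylation genes (2). The ribosomal protein genes had 2 calls of 20, Rpl14 (1.5, SE 0.09) and Rps6 (-0.88, SE 0.12), while Rplp0 (0.02) and Rpl4 (0.07) were not called.

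Several interferon-inducible gene families, which defend cells against viruses and intracellular parasites, held large single-gene differences in both directions. Irgm2, an immunity-related GTPase, had 10.21, 10.53 and 10.36 in DBA/2J livers, against 7.95, 7.87 and 8.10 in C57BL/6J livers, 5.26-fold higher (2.39, SE 0.11, adjusted p = 5.2e-07). Its neighbour Igtp, a GTPase of the same family, had 10.38, 10.61 and 10.40 in DBA/2J livers and 8.81, 8.76 and 8.71 in C57BL/6J livers (1.70, SE 0.09). The interferon transcription factors did not share this: Stat2 differed by 0.07 (adjusted p = 0.76) and Irf7 by -0.46 (adjusted p = 0.0755). The interferon list as a whole had 3 genes called higher and 2 lower of 17 (median -0.13), and 4 were called lower without DBA/2J replicate 1. Xaf1, the third higher gene (1.24), had a further probe set called lower (-0.96), so its direction is uncertain. Ifih1, a sensor of double-stranded RNA, was lower (-0.67), but under the fold minimum without C57BL/6J replicate 1 (-0.58).

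In the Ifi200 family of DNA-binding proteins, Ifi202b had 9.0, 8.95 and 8.89 in DBA/2J livers, against 5.89, 5.86 and 5.76 in C57BL/6J livers, 8.64-fold higher (3.11, SE 0.10, adjusted p = 3.64e-08). Mndal of the same family, whose further probe set was called lower too (-4.63), had 6.16, 5.84 and 6.19 in DBA/2J livers, against 8.46, 8.23 and 8.04 in C57BL/6J livers (-2.18, SE 0.13). The lower strain of each gene was under the filter, and Ifi203 of the family was not called (-0.05, adjusted p = 0.7). The restriction factor genes Trim34a (-1.66, SE 0.11) and Trim30a (-0.84, SE 0.13) were lower. A further probe set of Trim30a differed by -0.49, less than the fold minimum. Of 15 genes of antigen presentation, 3 were called lower beside H2-D1, whose direction is uncertain, and 0 higher, with H2-K1 at -0.95 (SE 0.15), the peptide-loading gene Tapbp at -0.91 (SE 0.09) and H2-Q10, a secreted class I molecule of liver, at -0.79 (SE 0.10). The caution on class I probe sets holds for H2-K1 and H2-Q10 too. For Tapbp, a further probe set differed by -0.41 and was not called.

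**Figure D5:**
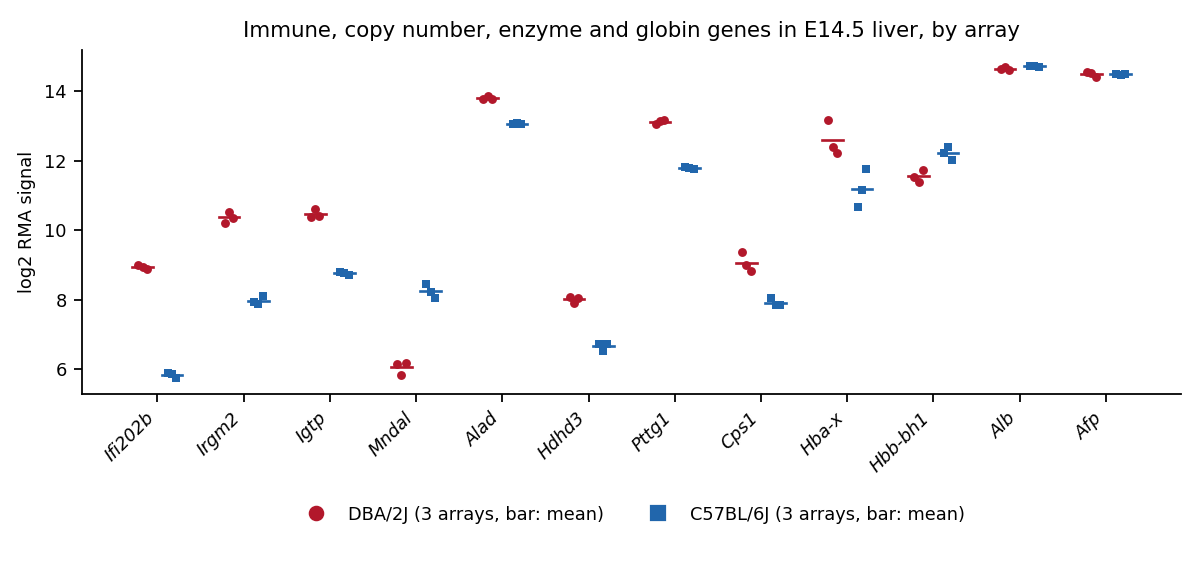
Log2 RMA signal (y axis) of 12 genes (x axis) in each E14.5 liver array, with red circles for DBA/2J, blue squares for C57BL/6J and bars for the means of 3 arrays. The arrays of the strains are apart in Ifi202b through Hbb-bh1, with Mndal and Hbb-bh1 lower in DBA/2J, and their means differ by at most 0.07 in Alb and Afp.

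DBA/2J is known to carry a duplicated segment with Alad on chromosome 4 and one with Glo1 on chromosome 17. Alad had 13.78, 13.87 and 13.77 in DBA/2J livers, against 13.05, 13.08 and 13.04 in C57BL/6J livers (0.75, SE 0.07, adjusted p = 7.35e-05), and its further probe set was called higher (1.06). Hdhd3, the adjacent gene, had 8.08, 7.92 and 8.04 in DBA/2J livers and 6.73, 6.52 and 6.72 in C57BL/6J livers (1.35, SE 0.09). Both genes were higher with no overlap, and the other 3 tested genes of that list were not called, with differences from -0.07 to 0.20. Glo1, glyoxalase 1, had 12.85, 13.12 and 13.17 in DBA/2J livers, against 12.64, 12.48 and 12.46 in C57BL/6J livers (0.52, SE 0.11, adjusted p = 0.0155), less than the fold minimum. Of its 3 further probe sets, 2 were called higher, at 0.86 and 0.74. Nnt, a mitochondrial transhydrogenase whose gene is partly deleted in C57BL/6J, differed by 0.26 (adjusted p = 0.373) at E14.5. Its further probe set differed by 0.42 at that stage (limma, adjusted p = 0.0113), less than the fold minimum. Nnt was called higher in DBA/2J in P1 (1.07), P7 (0.96) and P90 livers (1.55). Rpgrip1, a ciliary protein gene known from retina, was lower (-1.93, SE 0.14) and was called lower at each later stage and in brain.

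Called genes that lie next to each other were counted over 11562 adjacent pairs of tested genes within 1 Mb. Both genes were called in 51 pairs, in 37 of them in the same direction and in 14 in opposite directions. Of all genes tested, 1.97% were called higher and 3.05% lower. No expected number of pairs was worked out, so whether called genes cluster was not tested. No run held more than 2 genes. The pairs with the largest mean difference were AI506816 and Pus7 on chromosome 5 (4.09 and 1.18), S100a8 and S100a9 on chromosome 3 (-2.39 and -2.18), Stfa2l1 and Stfa3 on chromosome 16 (-2.11 and -2.13) and Igtp and Irgm2 on chromosome 11. Then followed Pnp and Ang on chromosome 14 (-1.11 and -2.30), Prtn3 and Elane on chromosome 10 (-1.52 and -1.84), Serpina1b and Serpina1c on chromosome 12 (-0.71 and -2.64) and Lyz2 and Lyz1 on chromosome 10 (-1.60 and -1.49). Of these 8 pairs, the S100, stefin (Stfa), elastase and lysozyme pairs are genes of myeloid cells. The stefin, Serpina1 and lysozyme pairs are also near-identical copies whose probe sets may share signal. Stfa2l1 lost its call without C57BL/6J replicate 1 (adjusted p = 0.0549) or DBA/2J replicate 2 (0.0508).

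The same strain difference was then set beside the later livers. Those arrays were normalized apart from the E14.5 set, so each difference was taken within its own set. Of the 609 called genes, 565 were tested in P1 liver and 138 of them (24.4%) were called the same way, with 13 called the opposite way. At P1, 6.85% of the genes tested were called. In P7 liver 151 of 556 (27.2%) were called the same way and 6 the opposite way, against 4.39% called of all, and in P90 liver 125 of 461 (27.1%) and 18, against 5.62%. Seen from the later stages, 18.2% of the genes called at P1, 33.3% at P7 and 23.7% at P90 were called the same way at E14.5. Of 449 called genes tested at all 4 stages, 57 were called the same way at each (28 higher, 29 lower) and 234 at no later stage.

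A contrast of the E14.5 difference less the mean of the later differences was fitted with limma over 36 liver arrays. It was called for 854 of 13706 genes (6.23%), above 0 for 488 (3.56%) and below 0 for 366 (2.67%). Of the 609 genes called at E14.5, 335 were called in it. For 325 of these its sign was that of the E14.5 difference (203 lower and 122 higher in DBA/2J). The E14.5 arrays that chose the 609 genes also enter the contrast, which favours that sign, so no conclusion is drawn from this count. A shared sign also does not mean that the E14.5 difference was the larger in size. After quantile normalization over all 36 arrays, which puts the sets on a common scale, 842 genes were called, 409 above 0 and 433 below, so the larger share turned (57.1% above 0 at first, 48.6% then). Of the 16 neutrophil genes on the array, 10 were called below 0 and 1 above. The median difference of the list was 0.44 at P1, -0.78 at P7 and -0.01 at P90. Camp differed by -2.62 at E14.5, 0.66 at P1, -1.19 at P7 and -0.01 at P90 (contrast -2.44, SE 0.20, adjusted p = 5.7e-10). Camp was thus called lower in DBA/2J at E14.5 and P7 and higher at P1.

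Single hepatocyte genes took different courses. Serpina1c differed by -2.64 at E14.5 and by -0.03, -0.22 and 0.02 at P1, P7 and P90 (contrast -2.56, SE 0.10, adjusted p = 6.83e-17). Arg1 differed by -1.94, -1.07, 0.10 and 0.10 over the same stages (contrast -1.65, SE 0.25) and Cps1 by 1.15, -0.25, -0.16 and -0.04 (contrast 1.30, SE 0.18). These 3 genes were close to equal at P90. Hddc3 (2.59, 2.43, 2.24 and 2.67), Ifi202b (3.11, 3.58, 5.05 and 3.26), Ang (-2.30, -2.14, -3.12 and -4.06) and Mndal (-2.18, -3.05, -2.96 and -4.47) differed in 1 direction at all 4 stages. Irgm2 differed by 2.39, 1.21, 0.43 and 0.01 over the stages.

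In brain of the same stage, 374 of the 609 called genes were tested and 50 (13.4%) were called the same way, 3 the opposite way, against 1.63% called of all genes tested there. The difference in liver less that in brain was called for 480 of 13273 genes (3.62%), 277 of them among the 609, and 517 were called after quantile normalization over the 18 arrays. Ift140 differed by -3.54 in liver and 0.02 in brain (contrast -3.56, SE 0.17, adjusted p = 6.74e-09), and Irgm2 by 2.39 and -0.24 (contrast 2.63, SE 0.19). Both were called in liver and not in brain. Rpl14 (1.5 in liver, 1.85 in brain), Hddc3 (2.59 and 2.12) and Alad (0.75 and 1.47) were higher in DBA/2J in both tissues. Hbb-bh1 differed by -0.65 in liver and 2.66 in brain (contrast -3.31, SE 0.56), called in opposite directions.

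The levels of 129S2 are set side by side with those of DBA/2J and C57BL/6J, since comparisons with it would share their arrays. In 129S2 livers Ift140 was at 9.23 ± 0.07, against 9.17 ± 0.20 in DBA/2J and 12.72 ± 0.11 in C57BL/6J (mean ± SD, n = 3 each). Ccnb1ip1 was at 10.61 ± 0.07, against 10.51 ± 0.25 in DBA/2J and 5.54 ± 0.69 in C57BL/6J, and Irgm2 at 10.45 ± 0.13, against 10.37 ± 0.16 in DBA/2J and 7.97 ± 0.12 in C57BL/6J. In these genes 129S2 lay beside DBA/2J. Hc was at 11.07 ± 0.15 in 129S2, against 9.15 ± 0.18 in DBA/2J and 11.03 ± 0.15 in C57BL/6J, and Car3 at 12.37 ± 0.03, against 9.38 ± 1.07 and 12.30 ± 0.15 in the same order, so there 129S2 lay beside C57BL/6J. Camp was at 10.13 ± 0.12 in 129S2, between DBA/2J (8.51 ± 0.60) and C57BL/6J (11.13 ± 0.09), and so was Elane, at 10.18 ± 0.10 between 9.18 ± 0.32 in DBA/2J and 11.02 ± 0.29 in C57BL/6J. Cps1 was at 11.23 ± 0.34 in 129S2, above DBA/2J (9.07 ± 0.27) and C57BL/6J (7.92 ± 0.10).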

How the data were processed

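RNA of whole liver was hybridised to Affymetrix mouse arrays, 1 channel per array, with 3 arrays for each of 24 groups. The deposited values were log2 signals that the authors had made with RMA, per the submitters' processing notes, with 45101 probe sets per array; its version was not given in the sources used here. Equal values show that the 9 arrays of E14.5 liver were normalized as 1 set, apart from the others. The table given with the arrays named 1 gene for 34958 probe sets, several for 932 and none for 9211. For each of 18194 genes the probe set with the highest mean over the 9 arrays of E14.5 liver was used, and a gene was tested where the higher of the DBA/2J and C57BL/6J means passed 6.74, the median of all values. The files hold no detection calls.

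The 9 arrays of E14.5 liver (3 of 129S2) were fitted with 1 mean per group in limma 3.58.1 under R 4.3.3 (lmFit and eBayes, two-sided). P-values were adjusted by Benjamini-Hochberg over all genes tested, and a gene was called at an adjusted p below 0.05 and a 1.5-fold difference. The fit was tested on simulated data. The contrast with later stages used the 36 liver arrays, and that with brain the 18 arrays of E14.5. Standard errors come from these fits, and SDs from the arrays of a group. The number of arrays limits the precision.

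The comparison and the 37 gene lists were chosen with earlier results of these data known. Named genes were the 12 highest and 12 lowest called genes, the first 2 and up to 4 called genes of each list, the 8 neighbouring pairs with the largest mean difference and the extremes of both contrasts, with their further probe sets. Clone-like symbols (30 called) were named only in pairs. Ctsg, Ms4a3, Ltf, Fcnb, Csf3r, Igfbp2, Mest, Peg3, Col1a1 and Col3a1 were named after their values were seen. Alternatives were other filters, probe set rules, scalings, fits and fold minimums, a replicate block and each array left out.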

Additional observations from a re-analysis of the deposited data

Results flagged for a closer look

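The values here are those of the 2 contrasts, in log2 units, and each was called by limma. Each sets side by side differences taken in sets of arrays normalized apart. On a common scale, after quantile normalization over all arrays of the fit, the contrast with stages called 842 genes (854 without it) and the contrast with brain 517 (480 without it).

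In the contrast of the DBA/2J minus C57BL/6J difference at E14.5 less its mean at P1, P7 and P90, the lowest of the genes lower in DBA/2J at E14.5 were Serpina1c (-2.56), Gcnt1 (-2.47), Slc6a20a (-2.45) and Camp (-2.44), with Ift140 at -2.78. H2-D1 (-2.49) has no settled direction, since its probe sets disagree. The highest were Ccnb1ip1 (3.55), Tmem184a (2.69), Slc25a31 (2.01), Irgm2 (1.84) and Ctse (1.74). Pttg1 (1.90) was called higher in DBA/2J at E14.5 (1.33) and lower at P90 (-2.66). Another 4 extremes were not called at E14.5. Rassf4 (-4.10), which encodes a Ras association domain protein, differed by -0.20 at E14.5 and by 3.12, 3.25 and 5.34 at P1, P7 and P90. The sulfotransferase gene Sult3a1 (-2.95) and the receptor gene Nlrp12 (2.31) were under the filter at E14.5, and so was the ephrin receptor gene Epha3 (2.05), with means of 6.72 in DBA/2J livers and 5.6 in C57BL/6J livers and a mean later difference of -0.93.

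In the contrast of liver less brain at E14.5, the lowest were Ift140 (-3.56), Hbb-bh1 (-3.31), Slc15a2 (-3.12), C1qtnf12 (-2.69), the fucosidase gene Fuca2 (-2.53) and Gcnt1 (-2.47). The highest were Ccnb1ip1 (4.05), the noncoding RNA gene Rmst (4.05), Tmem184a (2.77), Irgm2 (2.63), Ifi202b (2.18) and Gdpd1 (2.12). Rmst was under the filter in liver and differed by -4.21 in brain. A further probe set of Fuca2 differed by -0.02 between the strains in liver and was not called there.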

How the results depend on the processing

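The number of genes called by limma between DBA/2J and C57BL/6J livers was 609. It was 1529 with no fold minimum (815 higher, 714 lower) and 193 at a 2-fold minimum (71 higher, 122 lower), and the number called higher was 148 with the filter at the 75th percentile. With 1 array left out it lay between 513 and 634, with 188 to 275 higher and 324 to 376 lower, and 482 to 537 of the 609 genes kept their call. The contrast with later stages called 2077 genes with no fold minimum (1335 above 0, 742 below) and 731 to 892 with 1 array left out (405 to 541 above 0, 326 to 383 below). After quantile normalization over all arrays it called 842, 409 above 0 and 433 below (48.6% above 0, against 57.1%). The contrast with brain called 340 to 433 genes with 1 array left out (139 to 200 above 0, 201 to 248 below), against 480; those above 0 numbered 154 without C57BL/6J replicate 1 and 139 without replicate 2, against 232. The median of the rising maturation genes was -0.0672 at a 2-fold minimum, -0.15 with no filter (chosen after seeing the data, as were leaving arrays out of the lists and leaving out the blood cell lists) and -0.28 to -0.22 with 1 array left out; that of the falling genes was 0.0361 at a 2-fold minimum and 0.07 to 0.19 with 1 array left out. The median of the neighbouring organ genes turned to 0.0364 with the mean of all probe sets. The number of called genes in the lists was 78 to 97 with 1 array left out. Of 102 named called genes, 25 lost the call in at least 1 setting, 16 of them with all arrays in, and 0 reversed; H2-D1 and Xaf1 lost it with the mean of probe sets (-0.38 and 0.14), Slc15a2 likewise in the contrast with brain (-0.61), and Epb42 and Cyp2c29 with all 36 liver arrays in the fit. Replicate numbers were not taken as pairs: same-numbered DBA/2J and C57BL/6J arrays correlated at 0.06, 0.48 and -0.04 in their deviations, and C57BL/6J replicate 3 correlated better with DBA/2J replicate 1 (0.23). Same-numbered pairs with 129S2 all correlated above 0 (0.25 to 0.43, against -0.30 to 0.03 for other pairs with 129S2), a hint of pairing from the data and not from the design. With the replicate block 659 genes were called (277 higher, 382 lower), 854 in the contrast with stages and 476 in that with brain. Causes of these shifts were not tested beyond the smaller number of arrays or genes. Signal near background, below the filter, limits the size of a difference.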
